A study of Rattus norvegicus with 13 samples.

Results

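Laminins, nidogens, agrin, dystroglycan and integrins are the matrix proteins of the basement membrane and the receptors through which cells hold on to it. The genes described here were taken by symbol from the deposited table of 14790 rat genes: laminin alpha, beta and gamma chains, the nidogens *Nid1* and *Nid2*, *Agrn*, *Dag1*, and integrin alpha and beta chains. They are 37 genes, 14 for matrix or dystroglycan and 23 for integrin chains, and all 37 passed the minimum mean for the test. *Hspg2*, *Itga10*, *Itga2b* and *Itgam* are not analysed here. RNA was measured in mammary epithelial cells of untreated Wistar-Furth rats at 6 and at 10 weeks of age. The younger age falls in the window of susceptibility (WOS) to mammary cancer and the older age outside it. There were 6 rats at 6 weeks and 7 rats at 10 weeks, with 1 library for each rat, and both ages were of the same strain and went through the same digestion. The cells were ductal fragments obtained from collagenase-digested glands, which by the study's methods are mainly epithelial and still carry stromal fibroblasts and immune cells.

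The basement membrane is a thin sheet of matrix beneath epithelia and around vessels, nerve, fat and muscle. Its laminins are trimers of an alpha, a beta and a gamma chain, which self-assemble on the cell surface, and nidogens and the proteoglycan agrin connect them with the collagen IV network. Integrins are heterodimers of an alpha and a beta chain that span the membrane, and each pairing sets which matrix ligand is bound. In the mammary gland, contact with laminin through integrins and dystroglycan is known to be needed for epithelial polarity and for the response to lactogenic hormones, and myoepithelial cells are a main source of the epithelial laminins.

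Values per rat are RSEM counts that the authors scaled and rounded, called normalized counts here. Their totals per library lay between 13261906 and 15659533 at 6 weeks and between 13766735 and 15402814 at 10 weeks. In 7 of the 13 rats, 2 of 6 at 6 weeks and 5 of 7 at 10 weeks, some whole numbers from 1 to 30 never occurred. Rat 78 lacked 16 of them and rat 80 lacked 15. Low values in those 7 rats stand for fewer reads than the number shows. Once age means had been subtracted, the first component of all genes separated a set of 5 rats (75 and 80 at 6 weeks, 78, 81 and 83 at 10 weeks) from the other 8, and values within each set are given where they matter. Epithelial markers were present in every rat, with *Krt8* at 6486 or more, *Krt14* at 1707 or more and *Epcam* at 8992 or more. The test between ages was limma, fitted to log2(normalized count + 1), with p-values adjusted by Benjamini-Hochberg across the whole table, and a gene with an adjusted p under 0.05 is called differentially expressed (DE). A log2 fold change above 0 is higher at 6 weeks, and changes of genes at low counts come out too small on this scale. SE stands for the standard error of a log2 fold change. Normalized counts are not divided by gene length, so levels are compared between ages and not between genes.

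Within WOS, the broadly used laminin chains *Lamb1* and *Lamc1*, the linker *Nid1* and the alpha chain *Lama2* were higher, as were the integrin chains *Itga7*, *Itga11*, *Itga5* and *Itgb5*. Outside WOS, the integrin chains *Itga8* and *Itgb3* were higher. Of the 37 genes, 10 were DE (27.0%), against 16.1% of all 14790 genes. Those higher at 6 weeks numbered 8, where 8.71% of all genes were DE in that direction, and those higher at 10 weeks numbered 2, against 7.39% of all genes. The median log2 fold change was 0.31 over the 37 genes and 0.028 over all genes, with 28 values above 0 and 9 below. For 3 of the 37 genes every rat at 6 weeks lay above every rat at 10 weeks, and for 1 the order was the opposite. Over all genes these shares were 3.29% and 2.78%, or 6.07% together. In the set of 8 rats alone 6 of the 37 genes were DE and higher at 6 weeks and 3 were DE and higher at 10 weeks. Of all 14774 genes tested in that set, 2003 and 1466 were DE in these directions. There the share DE was about the same for the 37 genes as for all genes. In the set of 5 rats alone 0 of the 37 were DE in limma, and 12 had an unadjusted p under 0.05. Beside these changes, the summed level of 7 fibroblast markers had a median 3.79 times as high at 6 weeks, that of 6 pericyte markers 1.41 times and that of 6 mast cell markers 11.3 times. The fibroblast sum came mostly from *Col1a1* and *Col3a1*. Of its 7 markers 5 were DE, while *Pdgfra* and *Dcn* were not. The part of fibroblasts, pericytes and mast cells in the results was not tested, and in bulk samples fewer cells of a type and less RNA per cell cannot be told apart.

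**Figure D1:**
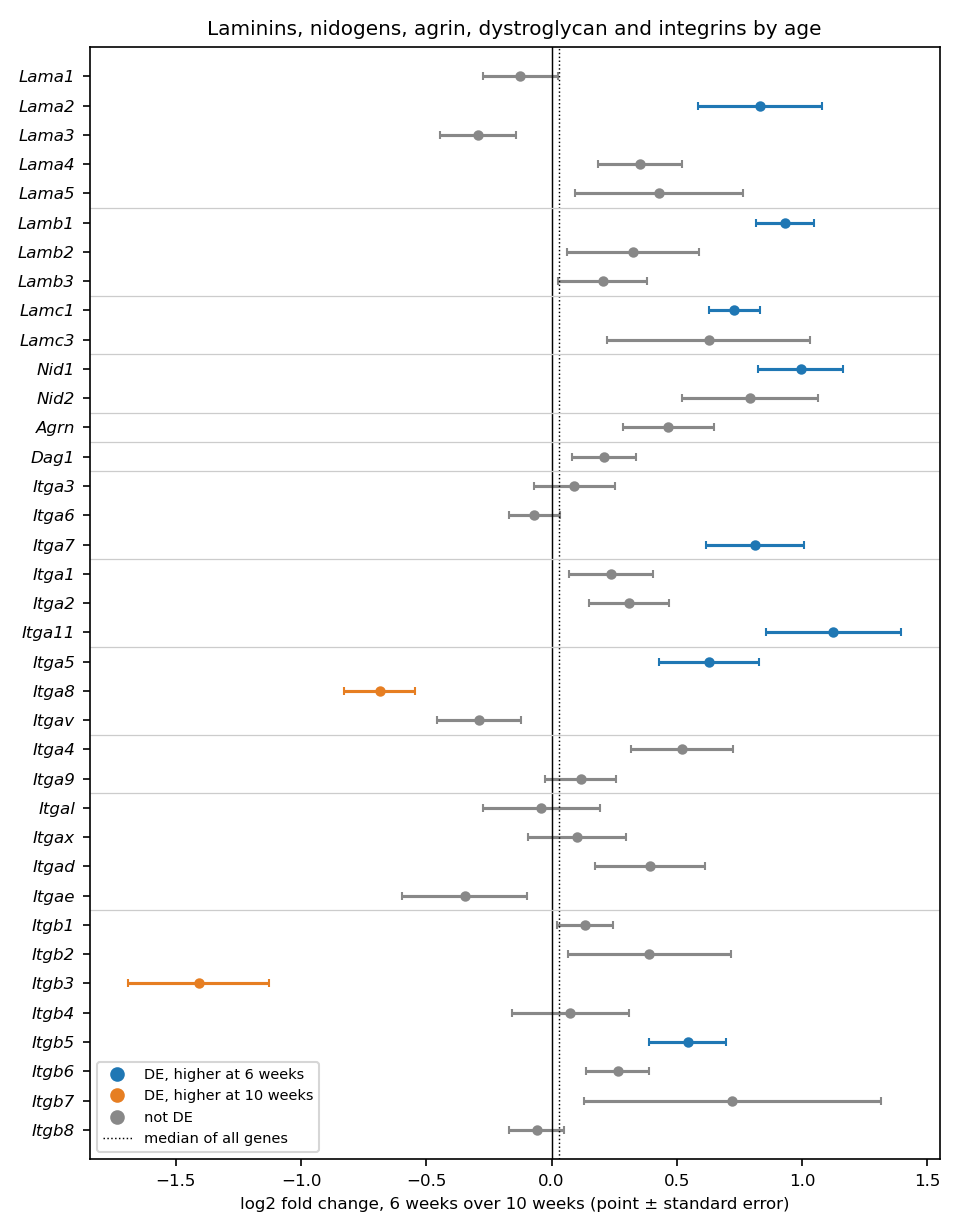
Log2 fold change between 6 and 10 weeks (horizontal axis, point with SE from limma) for each of the 37 genes, ordered by role from laminin alpha chains at the top to integrin beta chains at the bottom, with grey lines between roles and a dotted line at the median of all genes. The 8 blue points (DE, higher at 6 weeks) lie between 0.54 and 1.13, and the 2 orange points (DE, higher at 10 weeks) at -1.41 and -0.69.

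Of the 10 laminin chains described, 3 (30%) rose within WOS, against 8.71% of all genes. *Lamb1* (ENSRNOG00000005678), the beta chain of most laminins, had 4332 to 5200 normalized counts at 6 weeks (median 4832.5) and 1871 to 2889 at 10 weeks (median 2678). The lowest rat at 6 weeks was well above the highest at 10 weeks. This made 1.91-fold, with a log2 fold change of 0.93 (SE 0.12, adjusted p = 0.000318 from limma) and 6 of 6 rats higher. *Lamc1* (ENSRNOG00000002680), the gamma chain with which *Lamb1* pairs, had 6492 to 8277 normalized counts at 6 weeks (median 7039) and 3713 to 5045 at 10 weeks (median 4277). All rats at 6 weeks were again above all rats at 10 weeks. Its log2 fold change was 0.73 (SE 0.10, adjusted p = 0.000643 from limma), or 1.66-fold. Both genes were DE whichever of the 13 rats was removed. Their log2 fold changes were 0.90 and 0.73 in the set of 8 rats and 0.99 and 0.79 in the set of 5.

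*Lama2* (ENSRNOG00000011134), the alpha chain of laminins around muscle, nerve and stromal cells, had 2290 to 4961 normalized counts at 6 weeks (median 3561) and 1191 to 2859 at 10 weeks (median 2158). The ages overlapped, with 4 rats at 6 weeks higher than any at 10 weeks. The difference on the log2 scale was 0.83 (SE 0.25, adjusted p = 0.0384 from limma). This call was lost when any 1 of rats 70, 74, 75, 78, 80, 81, 83, 86 or 87 was left out, with an adjusted p of at most 0.0706, and it was also lost in the set of 8 rats, with a log2 fold change of 0.54 (adjusted p = 0.252), and with sample quality weights, with 0.42 (adjusted p = 0.158).

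*Lama3* and *Lamb3*, chains of epithelial laminin, were not DE. *Lama3* had 2895 to 3849 normalized counts at 6 weeks and 2879 to 5417 at 10 weeks, where 5 of the 7 rats were above every rat at 6 weeks (log2 fold change -0.29, adjusted p = 0.205 from limma). In the set of 8 rats *Lama3* was DE, with a log2 fold change of -0.49 (adjusted p = 0.0336), and in the set of 5 it was -0.0077. It was also DE with sample quality weights (-0.39, adjusted p = 0.0287). Over all genes 3469 of 14774 were DE in the set of 8 rats and 5647 of 14790 with these weights, against 2381 in the main fit. *Lamb3* had 527 to 961 normalized counts at 6 weeks and 556 to 1090 at 10 weeks, with a log2 fold change of 0.20 (SE 0.18, adjusted p = 0.457). *Lamb1* and *Lamc1*, which moved together between the ages, were on the same side of their age means in 6 of 13 rats.

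*Lama1*, *Lama4*, *Lama5*, *Lamb2* and *Lamc3* did not pass the test. *Lama4*, the alpha chain of vessel and fat basement membranes, had 2093 to 3759 normalized counts at 6 weeks and 1514 to 2498 at 10 weeks (log2 fold change 0.35, adjusted p = 0.165 from limma). *Lama5*, the main alpha chain beneath most adult epithelia, ranged widely at both ages, from 1791 to 5868 at 6 weeks and from 1631 to 5413 at 10 weeks, with a log2 fold change of 0.43 (SE 0.34). *Lamb2* was similar, with 1973 to 4631 at 6 weeks and 1566 to 3844 at 10 weeks (log2 fold change 0.33, SE 0.26). *Lama1*, prominent in embryonic basement membranes, had 417 to 660 and 462 to 778 normalized counts at 6 and 10 weeks. *Lamc3* had 73 to 220 and 22 to 157.

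*Nid1* (ENSRNOG00000002461), which links the laminin gamma chain to collagen IV, had 4251 to 7504 normalized counts at 6 weeks (median 5452) and 2143 to 3474 at 10 weeks (median 2873). Every rat at 6 weeks exceeded every rat at 10 weeks. With a log2 fold change of 0.99 (SE 0.17, adjusted p = 0.00224 from limma), or 1.99-fold, it was the largest change among the laminin and nidogen genes that were DE, and it stayed DE whichever rat was removed. It was 0.83 in the set of 8 rats and 1.29 in the set of 5. *Nid2*, its close relative, had 482 to 1111 normalized counts at 6 weeks (median 733.5) and 199 to 611 at 10 weeks (median 437), and 4 of 6 rats at 6 weeks were above all rats at 10 weeks. Its log2 fold change of 0.79 (SE 0.27) missed the threshold at an adjusted p of 0.0637 from limma. It passed with limma-trend (adjusted p = 0.039), with a minimum of 10 in all rats (0.0467) and with a term for the first residual component (0.0103). That component was taken from these same values after the age means were removed, so its term left the log2 fold change at 0.79. With the term 3526 of all 14790 genes were DE, against 2381 without it.

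*Agrn*, a heparan sulfate proteoglycan that binds laminin and dystroglycan, had 2136 to 3278 normalized counts at 6 weeks (median 2718.5) and 1449 to 2867 at 10 weeks (median 1827). The overlap came from rats 78, 81 and 83 at 10 weeks, which all belong to the set of 5 rats. With all rats the log2 fold change was 0.47 (SE 0.18, adjusted p = 0.0992 from limma), and *Agrn* was DE in the set of 8 rats alone (0.66, adjusted p = 0.0128) and when rat 81 was left out (adjusted p = 0.0407), as well as with sample quality weights (0.00518) and a term for the first residual component (0.0123). The set of 8 rats and the component come from these same values. Over all genes, 3469 of 14774 were DE in the set of 8 rats. Of 14790 genes, 5647 were DE with the weights and 3526 with the term, against 2381 in the main fit. *Dag1*, which encodes both subunits of the laminin receptor dystroglycan, had 4316 to 6419 normalized counts at 6 weeks and 4032 to 5517 at 10 weeks, with a log2 fold change of 0.21 (SE 0.13, adjusted p = 0.274). Its sign differed between the set of 8 rats (0.42) and the set of 5 (-0.12). *Dag1* was DE with sample quality weights (0.39, adjusted p = 0.0101), as were 5647 of all 14790 genes.

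Ratios of chains inside each library do not depend on how that library was scaled, provided that 1 factor was used for all its genes. For 4 ratios the ages were compared by exact permutation over the 1716 splits of the rats, two-sided, with adjustment over the 4 ratios. The ratio of *Lamb3* to *Lamb1*, a pair of beta chains, had a log2 value of -2.60 ± 0.37 (SD, n = 6 rats, exact permutation test) at 6 weeks and -1.87 ± 0.34 (SD, n = 7 rats) at 10 weeks, and the lowest rat at 10 weeks was above the highest at 6 weeks. The difference was -0.73 (adjusted p = 0.00233, exact permutation test), or 1.66-fold higher at 10 weeks. The unadjusted p of 0.000583 is the smallest that this design can give. The denominator is the DE chain *Lamb1*, so this ratio is not independent of the result for that gene.

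The other ratios showed no such separation. *Itgb4* to *Itgb1* differed between the ages by -0.058 on the log2 scale (adjusted p = 0.861, exact permutation test), and its sign turned with the rats used. *Itga6* to *Itga3* differed by -0.16 (adjusted p = 0.576, exact permutation test) and *Nid2* to *Nid1* by -0.20 (adjusted p = 0.576, exact permutation test). For all 3 the ranges of the ages overlapped.

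**Figure D2:**
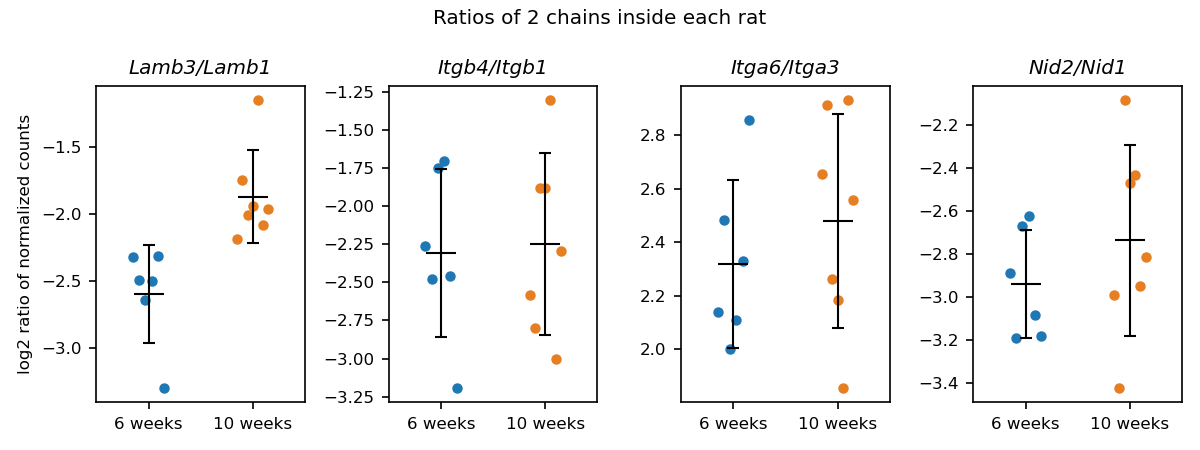
Log2 ratio of the normalized counts of 2 chains (vertical axis, own scale in each panel) in each rat, with 6 rats at 6 weeks in blue, 7 rats at 10 weeks in orange, and the mean with SD in black. The ages do not overlap for *Lamb3*/*Lamb1* (-3.30 to -2.32 against -2.19 to -1.15), and they overlap in the other 3 panels.

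Sequences before the start of the genes are shown for *Lamb1*, *Lamc1* and *Nid1*, the 3 genes whose rats at 6 weeks were all above those at 10 weeks, and for *Itga8*, the 1 gene with the opposite order. They are the 250 bases upstream of the RefSeq start in build GRCr8, on the strand of the gene, and capitals mark GC boxes, the letters GGGCGG on either strand. The regions are chr6:53562846-53563095 (plus strand) for *Lamb1*, chr13:68051987-68052236 (minus strand) for *Lamc1*, chr17:93069036-93069285 (plus strand) for *Nid1* and chr17:80410634-80410883 (minus strand) for *Itga8*.
Lamb1: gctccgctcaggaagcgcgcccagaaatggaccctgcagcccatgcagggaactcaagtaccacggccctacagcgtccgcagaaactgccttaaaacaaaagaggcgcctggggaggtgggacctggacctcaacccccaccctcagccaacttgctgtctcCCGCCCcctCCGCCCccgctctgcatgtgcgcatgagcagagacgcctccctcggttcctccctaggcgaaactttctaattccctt
Lamc1: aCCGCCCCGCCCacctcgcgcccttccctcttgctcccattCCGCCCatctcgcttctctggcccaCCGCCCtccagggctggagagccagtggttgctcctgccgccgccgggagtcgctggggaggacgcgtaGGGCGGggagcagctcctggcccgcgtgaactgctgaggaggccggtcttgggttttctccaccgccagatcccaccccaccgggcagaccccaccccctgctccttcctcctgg
Nid1: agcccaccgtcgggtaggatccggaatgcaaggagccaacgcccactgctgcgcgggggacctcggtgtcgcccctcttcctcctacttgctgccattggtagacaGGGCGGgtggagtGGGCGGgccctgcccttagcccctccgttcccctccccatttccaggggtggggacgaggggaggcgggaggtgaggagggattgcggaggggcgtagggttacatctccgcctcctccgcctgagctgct
Itga8: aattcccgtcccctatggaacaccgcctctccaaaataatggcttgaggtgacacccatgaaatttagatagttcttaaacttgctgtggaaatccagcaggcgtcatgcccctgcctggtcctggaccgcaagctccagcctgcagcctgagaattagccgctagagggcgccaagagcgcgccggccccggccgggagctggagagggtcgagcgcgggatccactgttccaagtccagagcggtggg

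The *Lamb1* stretch held 2 GC boxes, that of *Lamc1* held 5, of which 2 share a base, that of *Nid1* held 2 and that of *Itga8* held 0. None of the 4 contained the letters TATAAA. Of the 37 genes, 27 had a RefSeq promoter, and 14 of these (51.9%) contained a GC box, against 30.5% of 33469 rat promoters of the same length. Those 33469 promoters were not filtered by gene type or matched for GC content, so the 2 shares may come from unlike sets. A GC box was found in 6 of the 7 promoters of genes DE and higher at 6 weeks, in 8 of the 19 of genes that were not DE, and not in that of *Itga8*, the only one of the genes higher at 10 weeks with a promoter in the table. The other letters searched, on both strands, were CCAAT (6 of 27 promoters, 34% of all), TATAAA (2 of 27, 12.9% of all), the AP-1 letters TGANTCA (2 of 27, 6.34% of all) and the TEAD letters GGAATG (5 of 27, 12.1% of all). A match shows that the letters occur and not that a factor binds.

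Of the 15 integrin alpha chains, 3 rose within WOS and 1 rose outside WOS, or 26.7% DE against 16.1% of all genes. The main epithelial laminin receptors were not among them. *Itga6*, the alpha chain shared by the hemidesmosome and by a laminin receptor with *Itgb1*, had 7966 to 10495 normalized counts at 6 weeks and 8347 to 11006 at 10 weeks (log2 fold change -0.068, SE 0.10, adjusted p = 0.68 from limma). *Itga3* had 1228 to 2054 and 1363 to 2500, with a log2 fold change of 0.091 (SE 0.16). *Itgb4*, the hemidesmosome partner of *Itga6*, ranged from 1785 to 4205 at 6 weeks and from 1955 to 4216 at 10 weeks, with a log2 fold change of 0.076 (SE 0.23). *Itga6* and *Itgb4* deviated from their age means to the same side in 2 of 13 rats. *Itgb1*, the beta chain of most matrix-binding integrins, had 12687 to 16341 normalized counts at 6 weeks and 10414 to 15650 at 10 weeks (log2 fold change 0.13, SE 0.11, adjusted p = 0.436).

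The laminin-binding chain that did change was *Itga7* (ENSRNOG00000007905), best known from muscle. It had 218 to 451 normalized counts at 6 weeks (median 266.5) and 113 to 227 at 10 weeks (median 166), and all but 1 of the rats at 6 weeks exceeded the highest at 10 weeks. The log2 fold change was 0.81 (SE 0.19, adjusted p = 0.0152 from limma), or 1.75-fold, and it was DE whichever rat was removed.

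Among collagen receptors, *Itga11* (ENSRNOG00000006723), a chain of fibroblasts that binds fibrillar collagen, had 45 to 127 normalized counts at 6 weeks (median 73) and 21 to 53 at 10 weeks (median 34). Of the 6 rats at 6 weeks, 5 were above every rat at 10 weeks. At 2.18-fold, a log2 fold change of 1.13 (SE 0.27, adjusted p = 0.0148 from limma), this was the largest increase within WOS among the 10 DE genes. It was 2.05 in the set of 5 rats, and 0.57 and not DE (adjusted p = 0.105) in the set of 8. *Itga1* (491 to 1040 against 546 to 730) and *Itga2* (308 to 545 against 231 to 409) had log2 fold changes of 0.24 and 0.31 and were not DE.

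The chains that bind the RGD motif of fibronectin, vitronectin and related ligands split. *Itga5* (ENSRNOG00000057451), the alpha chain of the classical fibronectin receptor, had 856 to 1779 normalized counts at 6 weeks (median 1249) and 519 to 990 at 10 weeks (median 812), with 4 of 6 rats at 6 weeks above all rats at 10 weeks. Its log2 fold change was 0.63 (SE 0.20, adjusted p = 0.0484 from limma). This call was close to the threshold. It was lost with median-ratio scaling (adjusted p = 0.0555), a pseudocount of 0.1 (adjusted p = 0.0509) or sample quality weights (adjusted p = 0.132), in the set of 8 rats (adjusted p = 0.159), and when any 1 of rats 70, 72, 74, 75, 78, 80, 83, 85, 86 or 87 was left out (adjusted p of at most 0.0929).

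*Itga8* (ENSRNOG00000016538), a receptor chain for nephronectin and tenascin in smooth muscle and myoepithelial cells, had 1387 to 1830 normalized counts at 6 weeks (median 1545) and 1969 to 3430 at 10 weeks (median 2578). Every rat at 10 weeks was above every rat at 6 weeks. Its log2 fold change was -0.69 (SE 0.14, adjusted p = 0.00674 from limma), or 1.61-fold higher at 10 weeks, with -0.81 in the set of 8 rats and -0.57 in the set of 5. The call held whichever rat was removed. *Itgav*, which pairs with several beta chains, had 1302 to 2652 normalized counts at 6 weeks and 2139 to 2745 at 10 weeks. The log2 fold change of -0.29 (SE 0.17) was not DE at an adjusted p of 0.255, and the sign turned in the set of 5 rats (0.071). With sample quality weights *Itgav* was DE (-0.46, adjusted p = 0.0204), as were 5647 of all 14790 genes.

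Of the 8 integrin beta chains, 1 rose at each age, or 25% DE against 16.1% of all genes. *Itgb3* (ENSRNOG00000048449), a partner of *Itgav* in the vitronectin receptor, had 106 to 366 normalized counts at 6 weeks (median 189.5) and 310 to 675 at 10 weeks (median 621). Only rat 81, with 310, kept the ages from being separate, and the other rats at 10 weeks had 485 or more. The log2 fold change of -1.41 (SE 0.28, adjusted p = 0.00579 from limma), or 2.66-fold higher at 10 weeks, was the largest change among the 37 genes. It was DE whichever rat was removed, with a log2 fold change of -1.85 in the set of 8 rats and -0.57 in the set of 5. *Itgb5* (ENSRNOG00000001795), another partner of *Itgav*, went the opposite way, with 615 to 1088 normalized counts at 6 weeks (median 876) and 498 to 808 at 10 weeks (median 535). Its log2 fold change was 0.54 (SE 0.15, adjusted p = 0.0314 from limma), and the call was lost without rat 70, 71, 72, 74, 78, 80, 84 or 87 (adjusted p of at most 0.0758). The epithelial partner *Itgb6* had 1327 to 1805 and 1024 to 1577 normalized counts (log2 fold change 0.26, adjusted p = 0.168), and *Itgb8* had 432 to 611 and 444 to 591 (log2 fold change -0.059).

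**Figure D3:**
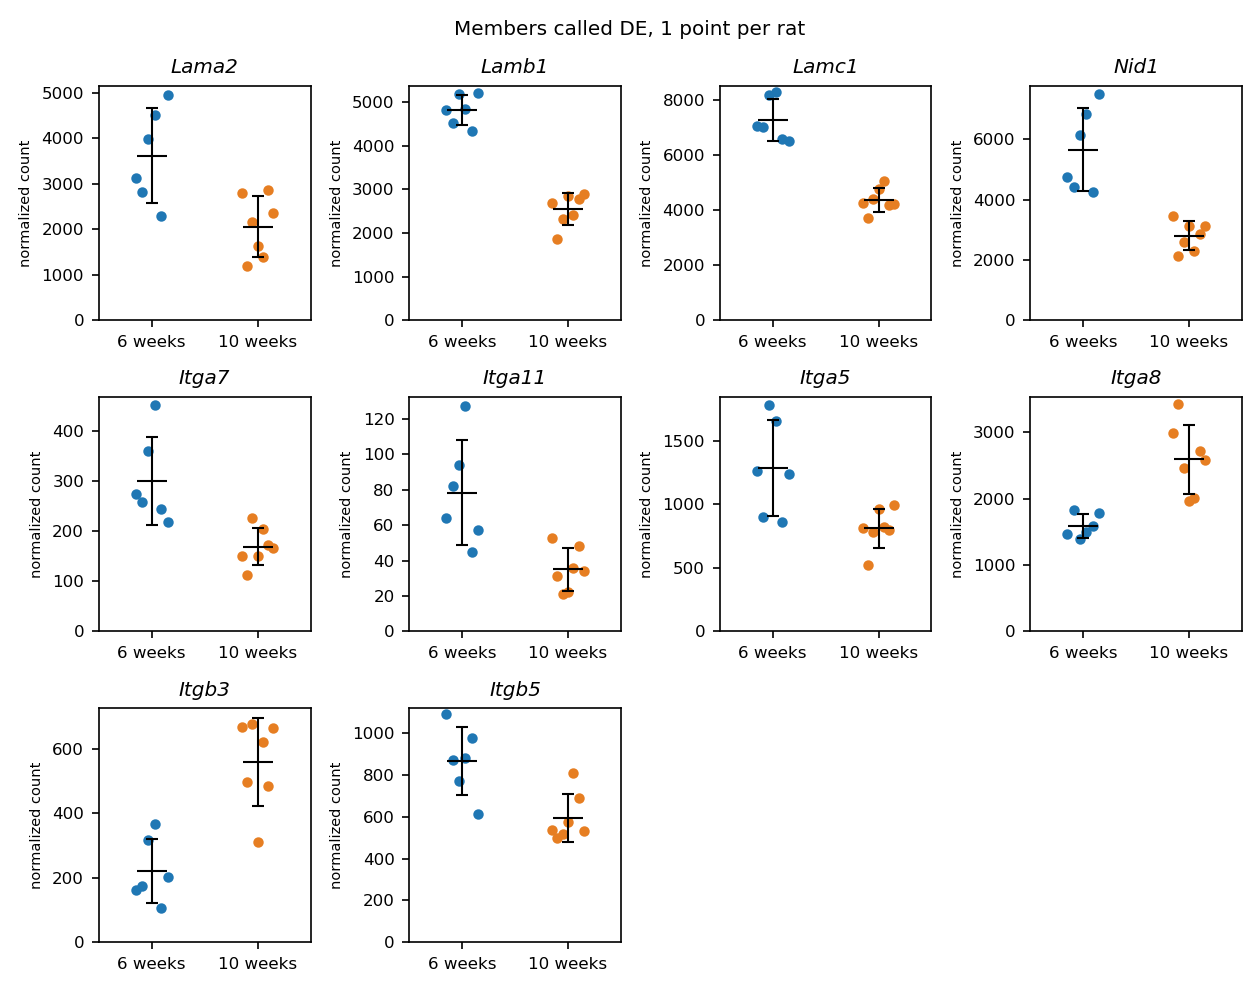
Normalized count (vertical axis, from 0, own scale in each panel) of the 10 DE genes in each rat, with 6 rats at 6 weeks in blue, 7 rats at 10 weeks in orange, and the mean with SD in black. *Lamb1*, *Lamc1* and *Nid1* are separate with 6 weeks above, *Itga8* is separate with 10 weeks above, and the other 6 overlap.

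The chains of leukocyte integrins were low and none was DE. *Itgal*, the alpha chain of a lymphocyte adhesion receptor, had 47 to 99 normalized counts at 6 weeks and 46 to 116 at 10 weeks. *Itgax*, a marker of dendritic cells and some macrophages, had 154 to 315 and 142 to 264, *Itgad* 46 to 130 and 50 to 97, and *Itgae*, which binds E-cadherin, 13 to 43 and 23 to 54. Their beta chains *Itgb2* (37 to 115 and 26 to 102) and *Itgb7* (4 to 35 and 1 to 18) had log2 fold changes of 0.39 and 0.72 with SEs of 0.33 and 0.59. *Itgal* and *Itgb2*, which form 1 receptor, were on the same side of their age means in 10 of 13 rats. The alpha chains *Itga4* (56 to 120 and 42 to 80, log2 fold change 0.52, adjusted p = 0.0996 from limma) and *Itga9* (160 to 259 and 157 to 226, log2 fold change 0.12) were not DE either. *Itga4* passed the threshold when rat 80 was left out (adjusted p = 0.0409).

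Genes that work with these proteins were read from a list of 70 genes in the table. Of these, 11 were DE and higher at 6 weeks and 5 were DE and higher at 10 weeks, or 22.9% against 16.1% of all genes, with a median log2 fold change of 0.045. All 6 collagen IV chains, the network that nidogen joins to laminin, rose within WOS. *Col4a1* had 17162 to 37393 normalized counts at 6 weeks and 8144 to 20030 at 10 weeks (log2 fold change 0.97, SE 0.25, adjusted p = 0.0221 from limma), and *Col4a2* had a log2 fold change of 0.96. The *Col4a1* call was lost without rat 70 (adjusted p = 0.0513), the *Col4a2* call without rat 70, 72, 74, 75, 80, 85 or 87 (at most 0.0806), the *Col4a4* call without any 1 of 10 rats (all but 70, 84 and 85, at most 0.0942), and the *Col4a6* call without rat 84 (0.0549). In the set of 8 rats neither *Col4a4* (0.26, adjusted p = 0.268) nor *Col4a6* (0.35, adjusted p = 0.115) was DE. The *Col4a4* call was also lost with median-ratio scaling (adjusted p = 0.0578), a pseudocount of 0.1 (0.0501) and sample quality weights (0.0794). *Col4a3*, *Col4a5* and *Col4a6* had smaller values, 0.67, 0.65 and 0.49, but no overlap between the ages, and *Col4a4* had 0.52.

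Integrin ligands moved in both directions. *Fn1*, which encodes fibronectin, had 13863 to 29055 normalized counts at 6 weeks and 3723 to 6242 at 10 weeks (log2 fold change 1.93, SE 0.19, adjusted p = 0.000113 from limma), or 3.81-fold. *Vtn*, which encodes vitronectin, rose within WOS by 1.28 on the log2 scale and *Tnc*, which encodes tenascin-C, by 1.19, neither with overlap between the ages. *Madcam1* was also DE and higher at 6 weeks, at counts of only 2 to 19 against 0 to 10, and lost this call without rat 72, 74, 75, 80, 83, 85 or 87 (adjusted p of at most 0.0615) and with limma-trend (adjusted p = 0.0526). *Thbs1*, which encodes the matricellular glycoprotein thrombospondin, was higher outside WOS, with 97503 to 138520 at 6 weeks and 185478 to 265106 at 10 weeks (log2 fold change -0.97, SE 0.12, adjusted p = 0.000318). *Cdh1*, which encodes E-cadherin, a ligand of the *Itgae* receptor, had a log2 fold change of -0.47 (adjusted p = 0.0165). The other 6 of 12 ligand genes were not DE.

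On the inner side of the receptors, 2 of 26 focal adhesion genes (7.69%) were DE, against 16.1% of all genes. Of the 26, 0 rose within WOS and 2 rose outside WOS, namely the kinase gene *Ptk2b* (log2 fold change -0.41, adjusted p = 0.017 from limma) and *Tns3*, a tensin gene (-0.35, adjusted p = 0.03). With libraries scaled to equal totals neither was DE (adjusted p = 0.0669 and 0.116), and *Tns3* was also not DE without rat 70, 72, 78, 83, 84 or 87 (at most 0.063) or in the set of 8 rats (adjusted p = 0.0771). The adaptor genes *Tln1* (-0.056), *Vcl* (0.070), *Ilk* (0.20) and the kinase gene *Ptk2* (-0.034) were not DE. None of the 4 hemidesmosome genes was DE, with log2 fold changes of 0.29 for *Plec*, 0.14 for *Col17a1*, 0.24 for *Cd151* and -0.42 for *Dst*. In the dystrophin-glycoprotein complex 1 of 10 genes was DE, *Sgcb*, with 357 to 513 normalized counts at 6 weeks and 219 to 343 at 10 weeks (log2 fold change 0.51, adjusted p = 0.0225). In the set of 8 rats *Sgcb* was not DE (0.36, adjusted p = 0.109). None of the 8 genes that glycosylate dystroglycan was DE with all rats, while *Pomt1* (0.78, adjusted p = 0.0189) and *B4gat1* (0.83, adjusted p = 0.0333) were DE and higher at 6 weeks in the set of 8. In that set of rats 3469 of 14774 genes were DE. Of 4 other laminin receptors *Sdc1*, a syndecan of epithelia, rose outside WOS (log2 fold change -0.41, adjusted p = 0.0188), but not with libraries scaled to equal totals (adjusted p = 0.0671), and *Bcam* was DE and higher at 6 weeks in the set of 8 rats (1.03, adjusted p = 0.0315) and not with all rats (0.0938).

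**Figure D4:**
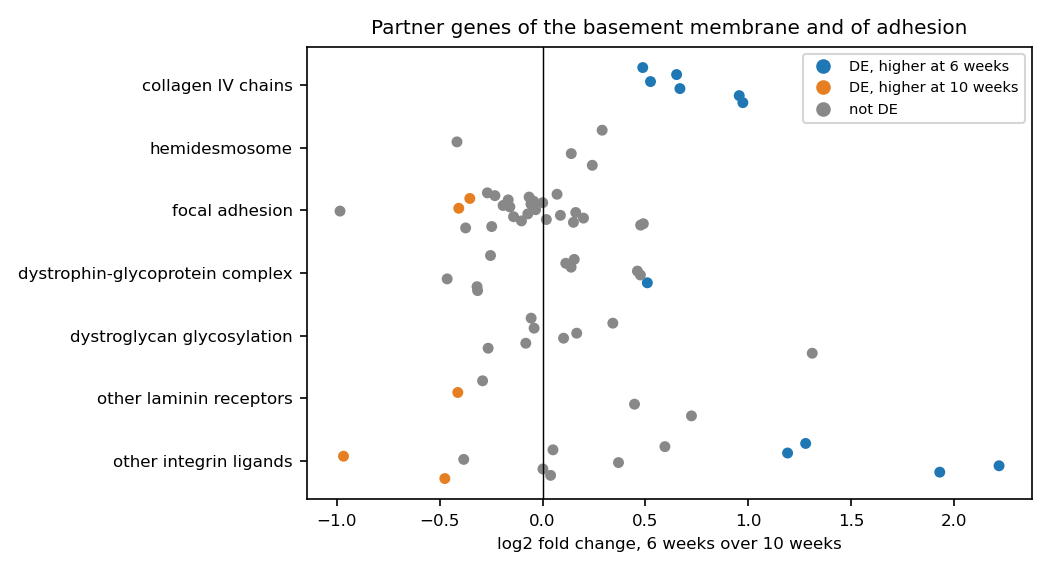
Log2 fold change between 6 and 10 weeks (horizontal axis) of 70 partner genes, 1 point per gene, in rows by group. All 6 collagen IV points are blue (DE, higher at 6 weeks), 24 of the 26 focal adhesion points are grey (not DE), and the integrin ligands spread from -0.97 to 2.22.

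Markers of stromal cells differed between the ages beside these genes. For the counts below, 8.71% of all genes were DE and higher at 6 weeks and 7.39% were DE and higher at 10 weeks. Of 7 fibroblast markers 5 were DE and higher at 6 weeks, and the summed level of the list was 105704 to 221524 normalized counts at 6 weeks and 18834 to 54753 at 10 weeks, with *Col3a1* having a log2 fold change of 2.14 and *Lum* of 2.02. Most of that sum was *Col1a1* and *Col3a1*, with 27256 to 77553 and 69539 to 135326 normalized counts at 6 weeks. *Pdgfra* (0.13) and *Dcn* (0.57), which also mark fibroblasts, were not DE. Of 6 pericyte markers 3 were DE and higher at 6 weeks (summed level 4891 to 7506 and 2551 to 4390), as were all 6 mast cell markers (406 to 965 and 25 to 240). With 1 rat removed, the pericyte marker *Cspg4* was DE in 4 of 13 fits and the mast cell marker *Hdc* in 5, and all other DE markers of the fibroblast, pericyte and mast cell lists in 13. In the set of 8 rats *Thy1* (adjusted p = 0.0786), *Pdgfrb* (0.138), *Abcc9* (0.0529), the basal marker *Cnn1* (0.0925) and the luminal marker *Epcam* (0.217) were not DE. With sample quality weights *Pdgfrb* (adjusted p = 0.0507) and *Epcam* (0.174) were not DE. The *Hdc* call was lost with a pseudocount of 0.1 (adjusted p = 0.112) and the *Cspg4* call with median-ratio scaling (0.0506). The endothelial list had 1 DE gene of 8, *Cldn5*, which was DE in 5 of 13 fits with 1 rat removed and not in the set of 8 rats (adjusted p = 0.061), and summed levels that overlapped, 9204 to 15278 and 9221 to 14348. Of 12 luminal markers 2, *Epcam* and *Kit*, and of 10 basal markers 1, *Cnn1*, were DE, all higher at 10 weeks. With 1 rat removed, *Epcam* was DE in 0 of 13 fits (adjusted p of at most 0.0808), *Kit* in 4 (0.0749) and *Cnn1* in 4 (0.0668), and none of the 3 was DE with libraries scaled to equal totals (adjusted p = 0.107, 0.062 and 0.108). Of the 5 adipocyte markers 3 were DE and higher at 6 weeks, with summed levels of 1534 to 2429 and 1416 to 2644, and of 4 lymphocyte markers 1 was. Of these, *Cfd* was DE in 5 and *Cd79b* in 7 of 13 fits with 1 rat removed, *Cd79b* was not DE in the set of 8 rats (adjusted p = 0.159), and with a pseudocount of 0.1 *Adipoq* (0.0537), *Plin1* (0.0533) and *Cd79b* (0.0505) were not DE. The *Cd79b* call was also lost with limma-trend (adjusted p = 0.0791) and with sample quality weights (0.0547). None of 8 macrophage, 4 platelet, 3 skeletal muscle and 5 Schwann cell markers was DE, nor was the 1 neutrophil marker in the table. The deposited table held 4 of 10 listed lymphocyte markers, 1 of 6 neutrophil markers and 3 of 8 skeletal muscle markers. All its genes had a mean of at least 1, so a marker at 0 in every rat could not appear.

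**Figure D5:**
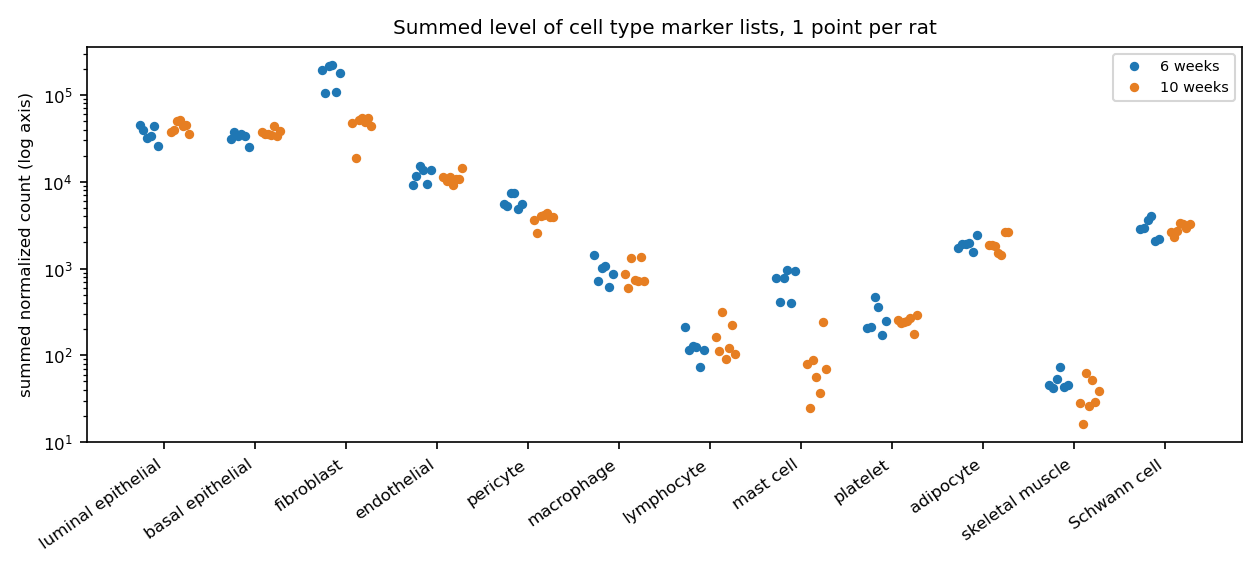
Summed normalized count (vertical axis, log scale) of each cell type marker list in each rat, with 6 rats at 6 weeks in blue and 7 rats at 10 weeks in orange, for all lists with more than 1 gene in the table. The fibroblast, pericyte and mast cell lists lie higher at 6 weeks without overlap, and the luminal and basal lists overlap.

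Some of the genes also differed between the sets of rats. For *Lama5*, *Lamb2*, *Lamc1*, *Agrn*, *Itga9* and *Itgb4*, every rat of the set of 5 was above every rat of the set of 8 at the same age. *Lama5* had 5262 to 5868 normalized counts in the 2 rats of the smaller set at 6 weeks and 1791 to 4082 in the other 4, and at 10 weeks 3172 to 5413 in the 3 rats of the smaller set and 1631 to 2301 in the other 4. *Itgb4* had 4096 to 4205 against 1785 to 2644 at 6 weeks and 3139 to 4216 against 1955 to 2646 at 10 weeks. The sets were formed from all genes, these included, so this is a description. The coefficient of variation within an age was lowest for *Lamb1* at 6 weeks (7.2%) and for *Itga1* at 10 weeks (9.71%), and highest for *Itgb7*, at 78.4% and 63.6%.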

How the data were processed

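RNA-seq values came from 13 rats, 6 at 6 weeks and 7 at 10 weeks of age, grouped by the sample titles. The authors counted reads per gene with RSEM 1.2.22, and the deposited table holds these counts scaled and rounded, here treated as a score and called normalized counts. The scaling method is not stated, and 1 factor per library is assumed. Per the labels the build was rn5, the paper names rn6, and the annotation is not given in the sources used here. The deposited table also holds the authors' EdgeR comparison (log2 fold changes, a likelihood ratio score, p-values and −log10 p), which was not used.

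Genes were compared by limma 3.58.1 (R 4.3.3) on log2(normalized count + 1), without covariates, with a minimum mean of 1, which all 14790 genes met, and with two-sided p-values adjusted over all of them. Ratios were tested by exact permutation in Python 3.11.15 with numpy 2.4.6 and pandas 2.3.3, and both tests were tested on simulated data. Nothing states whether the rats shared litters. The first residual component was computed on log2(normalized count + 1) over all genes, and the rats were parted at its largest gap. Reads before scaling are not known from the table, so no counting interval is given.

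The results of 1 further gene that the symbol rule takes are not reported here, and it is left out of all lists, ratios and figures but not of the fit. The genes, lists and ratios were chosen with earlier results of these data known. All 37 genes may be named, with full values for those that were DE, had no overlap between the ages or the highest mean of their role, and of the partner list the DE genes of each group. Any further partner gene was picked with its values in view. RefSeq promoters (GRCr8) were matched by symbol. Alternatives were other scalings (median-ratio or equal totals), no filter or at least 10 in all rats, a pseudocount of 0.1, sample quality weights, limma-trend, a term for the first residual component, the larger set of rats and each rat left out. The smaller set alone was added after the data were seen.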

Additional observations from a re-analysis of the deposited data

Results flagged for a closer look

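Within each age, the rat with the highest or lowest value was compared with its neighbour by Dixon's criterion on the log2 scale, for the 37 genes and 4 ratios. Of 82 groups of rats 7 passed, where chance gives about 1 in 20.

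At 6 weeks, rat 86 was low for *Lamb3*, with 527 normalized counts against 801 to 961 in the other rats, and for *Itga3*, with 1228 against 1875 to 2054. The log2 ratio of *Lamb3* to *Lamb1* in rat 86 was -3.30, against -2.65 to -2.32 in the others of its age. At 10 weeks, rat 83 was high for *Lamb3*, with 1090 normalized counts against 556 to 741, and its log2 ratio of *Lamb3* to *Lamb1* was -1.15, against -2.19 to -1.75. Rat 74 was low for *Itga5*, with 519 normalized counts against 781 to 990 in the other rats at 10 weeks. Rat 81 was low for *Itgb3*, with 310 against 485 to 675. *Itgb3* was also DE without rat 81, and *Itga5* was not DE without rat 74.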

How the results depend on the processing

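*Lamb1*, *Lamc1*, *Nid1*, *Itga7*, *Itga8* and *Itgb3* stayed DE under all 9 planned settings and in each of the 13 fits with 1 rat removed, and *Itga11* under all but the larger set of rats. Leaving out 1 rat gave 5 to 8 of the 37 genes DE and higher at 6 weeks, with 5 without rat 70, 74, 78 or 87, and 2 higher at 10 weeks in every case. Partner genes numbered 8 to 11 and 4 to 6. Sample quality weights gave 4 of the 37 genes and 9 partner genes higher at 10 weeks, and library size scaling gave 2 partner genes. Library size scaling also moved the median of all genes to 0.074. Over all genes the number DE was 2381, with 1411 to 2680 when 1 rat was left out (1411 without rat 70, 1488 without rat 84 and 1558 without rat 87), 5647 with sample quality weights and 3526 with a term for the first residual component. In the larger set of rats alone the number DE was 3469 of 14774 genes. In the smaller set of rats alone, with 2 rats against 3, limma gave 0 genes in each direction in both lists (12 genes and 16 partner genes with an unadjusted p under 0.05). Over all 14770 genes tested in that set limma also gave 0 in each direction, and 1976 had an unadjusted p under 0.05.

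In the larger set the difference in log2 ratio was -0.61 for *Lamb3*/*Lamb1*, and in the smaller set -0.87. With 4 rats against 4 the smallest exact permutation p is 0.0286 and with 2 against 3 it is 0.1, so after adjustment over 4 ratios both values were above the threshold (0.114 and 0.4). Leaving out 1 rat gave -0.78 to -0.59 for *Lamb3*/*Lamb1*, -0.18 to 0.12 for *Itgb4*/*Itgb1*, -0.27 to -0.085 for *Itga6*/*Itga3* and -0.32 to -0.095 for *Nid2*/*Nid1*. *Itgb4*/*Itgb1* was 0.072 in the larger set.

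Signs turned for genes that were not DE. *Itgal* had 0.0064 under library size scaling, 0.010 in the larger set and -0.15 to 0.080 when 1 rat was left out. *Itgax* had -0.17 with sample quality weights and -0.16 in the larger set, and *Itgb7* had -0.12 there. *Itgb4* ran from -0.039 to 0.21 when 1 rat was left out. In the smaller set *Dag1* had -0.12, *Itga3* -0.0052, *Itgav* 0.071 and *Itgb8* 0.11. The cause was not tested. No paired analysis was possible because the ages share no rat numbers.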
